A study of Chlamydomonas reinhardtii with 2 samples.

Results

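The 454 regions described here are places on the genome of the unicellular green alga Chlamydomonas reinhardtii where reads that start at the poly(A) side of a cDNA pile up. They were chosen among 3382 such clusters of any size on sequences 1 to 17, the numbered sequences of the genome that was used. The members were picked by read starts in the N-replete library. A member is a group of 5 or more reads whose first 45 to 57 bases, the leading bases, do not align and whose aligned parts start within 10 bases of each other on 1 strand. The transcript runs opposite to these reads, so a member is taken to mark the downstream end of a transcript. Read counts, leading bases and positions of members were therefore used by the choice, and they are given as a description, with no test.

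The library came from strain dw15.1 (genotype cw15, nit2, mt+), which carries a cell wall mutation and a mutation in the regulator of nitrate assimilation. Cells grown in TAP medium, which contains acetate, to 5000000 cells per mL were kept for 48 hours in 50 mL of the same medium with 10 mM ammonium under continuous light. The study also has 1 N-deprived library of the same strain and culture, kept for 48 hours in medium without nitrogen, which is not analysed here. There is 1 library and no replicate, so all intervals below are exact Clopper-Pearson 95% intervals (order-statistic intervals for medians) and cover counting error only.

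The 3' end of a messenger RNA is made by cutting the transcript and adding a tail of A residues, the poly(A) tail. In Chlamydomonas the cut usually lies shortly after the signal UGUAA, in place of the AAUAAA of animals. A gene can be cut at more than one place, either within its last exon, which changes the length of the 3' untranslated region, or further upstream, which can also change the protein. The sources used here do not name the genome version of the files, so no genome sequence was read around the ends. Neither the signal nor A-rich stretches were searched, and no gene names were assigned. Whether a member stems from a poly(A) tail or from A bases inside a transcript was therefore not tested.

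The primer for cDNA synthesis on the poly(A) tail is shown because it is taken to form the start of poly(A) side reads. The leading bases themselves were not read. Capitals mark its T-rich part. It is printed without its last 2 bases, an anchor written VN in which V stands for any base but T.
cDNA synthesis primer: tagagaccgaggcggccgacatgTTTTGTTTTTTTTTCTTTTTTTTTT
With the anchor the primer has 50 bases, and without it 48. The commonest number of leading bases over the 12911 reads of the members was 50, found in 2391 reads, and 83.4% (interval 82.7 to 83.99) of the reads had 47 to 53.

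The N-replete library held 223396 reads with 1 best place on the genome, of which 124379 lay on sequences 1 to 17. Of these, 17070 had 45 to 57 leading bases, and 75.6% (interval 74.98 to 76.3) of them fell into the members. At the limits of the choice, 95 clusters had 4 reads and were left out, and 67 had 5 and were kept. Numbers of reads at the borders of the lead range were 788 with 44 leading bases, 697 with 45, 240 with 57 and 183 with 58. The lower border therefore lies between the peak of 3068 reads with 50 leading bases and the larger peak of 7011 reads with 40, which lies in the range of 34 to 44 taken here as the 5' side of the cDNAs.

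A member had a median of 11 end reads (interval 10 to 12, quartiles 6 and 24). There were 202 members with 5 to 9 end reads, 106 with 10 to 19, 125 with 20 to 99 and 21 with 100 or more. The 10 largest held 26.0% (interval 25.3 to 26.8) of all end reads in members. Plus-strand transcripts ended at 213 members and minus-strand transcripts at 241. Sequence 12 had 61 members, sequence 2 had 59 and sequence 6 had 56, while sequence 15 had 3. Per 1000 reads with 1 best place, the number of members ran from 1.94 on sequence 8 to 6.11 on sequence 7. On sequence 8 the largest member alone held 957 of the 1491 end reads.

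The share of transcribed places with a member was higher where there were more reads. Reads were joined into loci, which are runs of overlapping alignments. Of the loci on sequences 1 to 17, a member was present at 102 of 642 with 10 to 49 reads (15.9%, interval 13.1 to 18.9), at 188 of 225 with 50 to 199 reads (83.6%, interval 78.1 to 88.1) and at 97 of 99 with 200 or more (97.98%, interval 92.9 to 99.8). The pair of large loci without a member lay on sequence 2 at 3126281 to 3126301 (296 reads) and on sequence 14 at 3204140 to 3204310 (621 reads).

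Most members ran in the direction given by splicing, but 22 members were places where other read starts prevailed. Intron borders give the strand of a transcript from other bases than the read start. The range of 45 to 57 leading bases had been set by looking at spliced loci, so the match is a description. Of 310 members at loci with a splice direction, 289 ran the same way (93.2%, interval 89.8 to 95.8) and 21 the opposite way. At a median member, 90.9% of all read starts of that strand within 10 bases of the cluster had 45 to 57 leading bases. At 22 members this share was under 50%, and of the 20 of these with a splice direction 18 ran opposite to it. Among the 432 members at 50% or more, 287 of 290 ran in the splice direction (98.97%, interval 97.0 to 99.8). The class of 22 was set apart after its values were seen. The highest share among the 22 was 47.7%, and the lowest among the 432 was 52.2%.

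**Figure D1:**
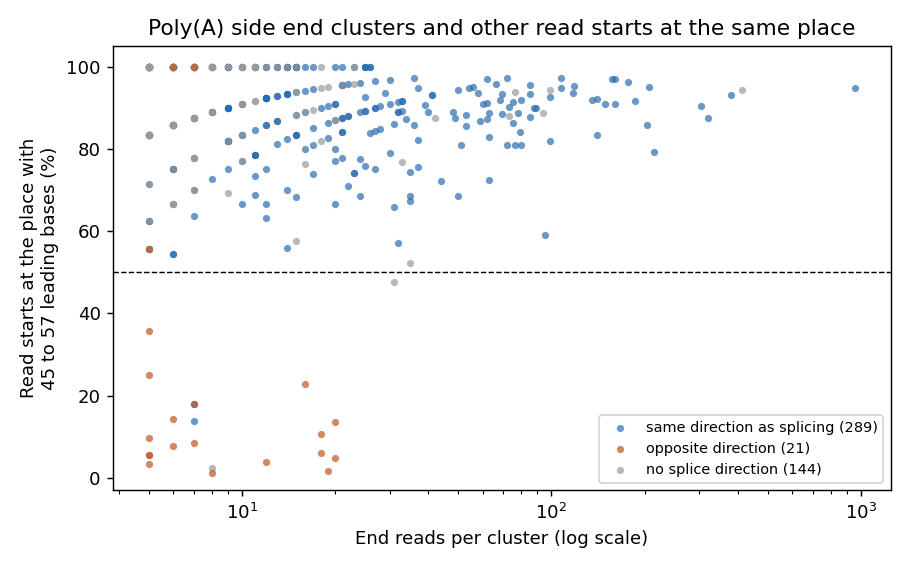
Each point is 1 of the 454 clusters: the horizontal axis is its end reads on a log scale, the vertical axis the percent of all read starts at the place that had 45 to 57 leading bases, and the dashed line marks 50%. Most of the clusters that run opposite to splicing (18 of 21) lie below the line, and the clusters with the most reads lie above it.

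The 22 members were of 2 main kinds. At 17 of them more reads started with 34 to 44 leading bases, the range of 5' ends, than with 45 to 57, and 15 of the 17 ran opposite to splicing. On sequence 8 at 1117958, for example, 19 end reads stood among 1168 read starts (1.63%, interval 0.982 to 2.53), and 1061 of the others had 34 to 44 leading bases. This place is the opposite side of the short cDNA that ends at the largest member. On sequence 16 at 4755201, 8 end reads stood among 615 starts, of which 521 had 34 to 44 leading bases. A further kind lay at intron borders. A total of 5 members lay within 3 bases of the border of an intron seen in at least 2 reads, 4 of them among the 22, and all 5 were 1 position wide. The member on sequence 2 at 5430557 was of both kinds, with 8 starts of 34 to 44 leading bases and 7 of 45 to 57. On sequence 8 at 222043, 20 of 148 starts had 45 to 57 leading bases, 17 had 34 to 44 and 31 had under 20, and the remaining starts had other leads. The 22 members together held 240 end reads, against 12671 at the other 432. Over their reads the median number of leading bases was 47 (interval 46 to 47), against 50 at the other members. Of the 22, 2 were of neither kind. At 1 of these, on sequence 14 at 3203936, 31 of 65 starts (47.7%, interval 35.1 to 60.5) had 45 to 57 leading bases and 13 had 34 to 44, so its name stays uncertain. The other, on sequence 17 at 931427, had 5 of 14 starts with 45 to 57 leading bases (35.7%, interval 12.8 to 64.9). Only 2 starts there had 34 to 44 and 2 had under 20, so its name stays uncertain too. At the places of the 2 main kinds most read starts had other leads, so the data go against the name of a poly(A) side end there. All 22 are left out below wherever this is stated.

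The 10 members with the most reads ranged from 177 to 957 end reads, and all of them belonged to the 432. The largest lay on sequence 8 at 1117581, at the end of a minus-strand transcript, with 957 end reads in 317 distinct alignments. Of its reads, 407 started at the commonest position, 89 at 1 base and 134 at 2 bases upstream of it, and 59 at 1 base and 70 at 2 bases downstream. A further 63 started at 3 and 95 at 4 bases upstream, so the upstream side held smaller maxima at 2 and 4 bases. Within 2 bases lay 79.3% of the reads (interval 76.6 to 81.8), or 73.2% (interval 67.9 to 78.1) with identical alignments counted once. The member on sequence 6 at 7310174, on the plus strand, had 414 end reads. Its reads were less concentrated, with 103 at the commonest position, 96 at 3 bases and 59 at 6 bases downstream, and 56.04% (interval 51.1 to 60.9) within 2 bases. All 414 of these reads were also listed at another place on the genome, so their share between copies is uncertain.

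Other members among the 10 differed in how many positions took the reads. On sequence 16 at 4755934 (plus strand) 185 of 379 end reads started at the commonest position. On sequence 6 at 3980015 (plus strand) this held for 186 of 320, with another 69 placed 2 bases downstream. On sequence 2 at 2273535 (plus strand) it held for 107 of 177, the highest share of the 10 at 60.5%. The lowest share was 20.1%, on sequence 4 at 34999 (plus strand), where 41 of 204 end reads started at this position, 41 at 2 bases upstream and 38 at 2 bases downstream. The remaining 4 lay on sequence 8 at 222572 (plus strand, 304 end reads), on sequence 2 at 3833391 (minus, 214), on sequence 12 at 100547 (minus, 207) and on sequence 9 at 3948687 (minus, 186).

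Poly(A) side ends were spread over several neighbouring bases as a rule. Among the 143 members of the 432 with 20 or more end reads, the median share of reads at the commonest position was 36.9% (interval 35.5 to 39.4). Within 2 bases of it the median was 72.7% (interval 69.2 to 75.8), and within 5 bases 95.2% (interval 93.6 to 97.1). The median width was 11 bases (quartiles 9 and 15) with 8 positions in use. A total of 14 of the 454 members were over 20 bases wide, and the widest covered 39 bases. For comparison, the 5' side of the cDNAs was clustered in the same way from reads with 34 to 44 leading bases, which gave 395 clusters of 5 or more reads. In the 110 of these with 20 or more reads, the median share at the commonest position was 67.0% (interval 62.8 to 72.4) and within 2 bases 89.3% (interval 85.5 to 93.2), with a median width of 11 bases. Inside a cluster, the 5' reads were thus concentrated more on 1 base. Both shares come from the read starts that formed the clusters, so no test is given.

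Pooled over members, reads further downstream had fewer leading bases on average. Of 10126 end reads in the 143 members, 39.0% lay at the commonest position, 28.1% (interval 27.2 to 29.0) upstream and 33.0% (interval 32.0 to 33.9) downstream of it. The mean number of leading bases was 52.0 ± 2.82 (SD over 76 reads) at 6 bases upstream, 50.3 ± 2.32 (3946 reads) at the commonest position and 47.7 ± 2.16 (242 reads) at 6 bases downstream. Reads whose alignment reached further downstream thus had shorter leads. The part of alignment in the spread of positions was not tested.

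**Figure D2:**
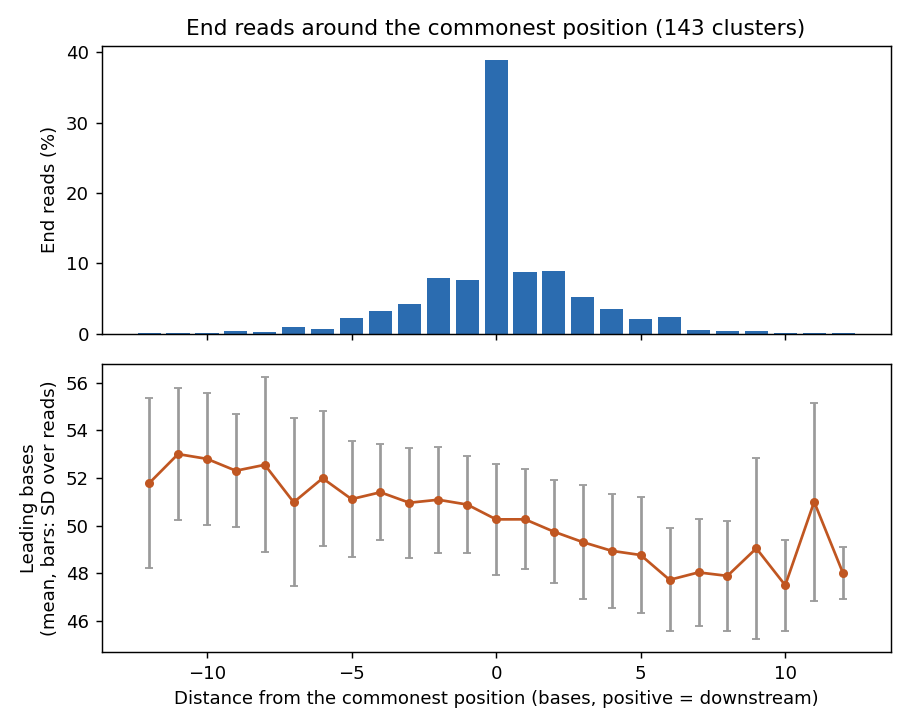
The upper panel shows the percent of the 10126 end reads at each distance in bases from the commonest position, summed over 143 clusters, with positive values downstream. The lower panel shows the mean number of leading bases of the reads at that distance, with bars for the SD over reads; the mean falls from 52.0 at 6 bases upstream to 47.7 at 6 bases downstream.

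Reads that ran along the transcript, which the choice of members did not use, also stopped at the members. They come from the same amplified cDNA but are other reads. A stop was counted where such a read ended its alignment within 10 bases of the commonest position and left at least 15 trailing bases unaligned. At least 1 stop was found at 339 of the 432 members (78.5%, interval 74.3 to 82.3). Among the 143 of them with 20 or more end reads it was found at 140 (97.9%, interval 94.0 to 99.6), with a median of 10 stops (interval 7 to 12). The largest member, on sequence 8, had 47 stops and 0 reads along the transcript that crossed it with at least 10 aligned bases on each side. On sequence 6 at 3980015 there were 89 stops and 0 crossings, and on sequence 8 at 222572 there were 122 stops and 2 crossings. Stops were also found at 19 of the 22 members set apart above (86.4%, interval 65.1 to 97.1). A stop thus does not tell a poly(A) side end from those places.

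Crossing reads along the transcript were rare except where a further member lay downstream. Leaving aside the 12 members that are the proximal, that is upstream, end of a pair described next, 420 members had 2762 stops and 126 crossings, so 4.36% (interval 3.65 to 5.17) of these reads went on. At 360 of the 420 no read along the transcript crossed. Reads of the other direction were not counted here. Over both directions, 96 reads crossed the member on sequence 6 at 7310174, against 0 along the transcript. On sequence 2 at 3833391 the numbers were 39 and 4, and at the largest member both were 0. The 12 proximal ends had 125 stops and 291 crossings, or 69.95% (interval 65.3 to 74.3), and each was crossed by at least 1 read. A member downstream in the same locus was a condition for being one of the 12, so this difference is a description. Of the 420, 4 had at least 5 crossings and more crossings than stops. The highest was on sequence 6 at 2920024 (minus strand), with 20 end reads, 11 stops and 21 crossings, in a locus whose reads end at 2920001. The other 3 lay on sequence 2 at 1184166, sequence 7 at 5025519 and sequence 12 at 7403066, with 5 to 8 crossings each. Over both directions, 54 reads crossed at 2920024, 83 at 1184166, 9 at 5025519 and 8 at 7403066. At 1184166 and 7403066 the member ran opposite to the splice direction of its locus, so the reads counted there as running along the transcript ran against splicing. These 4 were singled out after their values were seen.

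**Figure D3:**
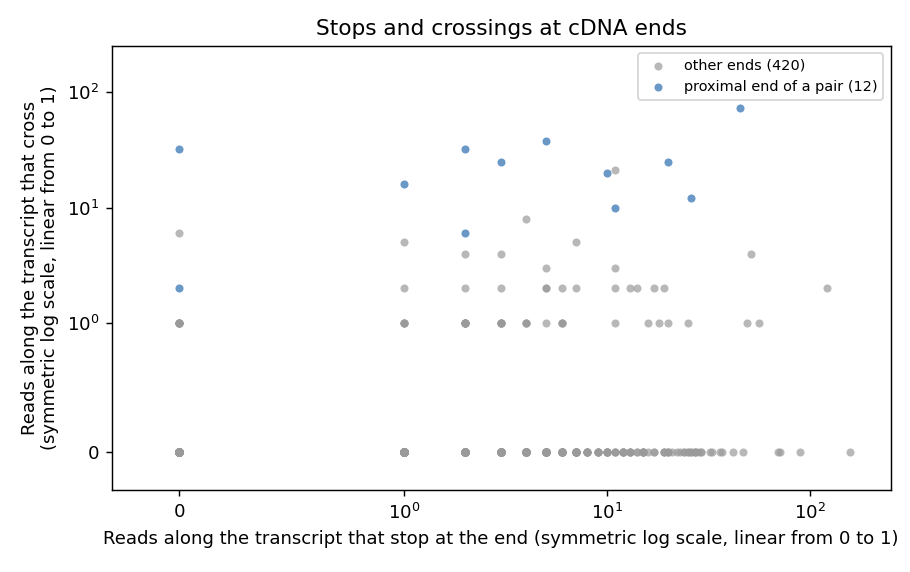
Each point is 1 of the 432 clusters: the horizontal axis counts reads along the transcript that stop at the end with unaligned trailing bases, the vertical axis those that cross it, both on symmetric log scales. The 12 proximal ends of pairs all have crossing reads, while 360 of the other 420 have 0.

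Few loci showed more than 1 end at this depth. Of the 440 combinations of locus and strand with a member, 14 had 2 members (3.18%, interval 1.75 to 5.28) and none had more on 1 strand. In 2 of the 14, on sequence 2 at 5430557 and on sequence 14 at 1981916, the proximal member was 1 position wide, lay within 3 bases of an intron border and belonged to the 22. The remaining 12 pairs made up 2.86% (interval 1.48 to 4.94) of 420 combinations. Where the members held at least 50 end reads, 6 of 62 combinations had a pair (9.68%, interval 3.63 to 19.9). In the 144 combinations with at least 20 end reads of any position, the main end took a median of 100% of them (lower quartile 95.4%), and it took under 90% at 21 and under 70% at 6.

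The 12 pairs lay within the last exon as far as introns were seen. The ends of a pair were 38 to 281 bases apart, with a median of 93 (interval 59 to 160). No intron seen in at least 2 reads lay between them, no 5' cluster lay between them, and in all 12 the nearest upstream acceptor, the site where the last intron ends, was the same for both. The proximal end had more reads in 7 pairs and the distal end in 5. The end with fewer reads held 8.33% to 45.9% of the reads of its pair, with a median of 27.6%. Among the distal end reads of the 10 pairs up to 160 bases apart, 388 of 434 (89.4%, interval 86.1 to 92.1) were themselves aligned across the proximal end with at least 10 bases on each side. In these reads, the sequence beyond the proximal end and the sequence before it are on 1 cDNA. Over all 12 pairs the share was 80.8% (interval 77.0 to 84.3), and no distal read crossed the proximal end in the pairs 173 and 281 bases apart. End reads had a median of 182 aligned bases per member, which bounds the distance that a crossing read can span. These shares thus also depend on read length.

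In 7 pairs the end with fewer reads held at least 20% of the pair. The pair with the most reads lay in a minus-strand transcript on sequence 9, with 186 end reads at 3948687 and 140 at 3948596, 91 bases further downstream. The proximal end thus took 57.1% (interval 51.5 to 62.5), and 125 of the 140 distal reads crossed it. Of the reads along the transcript, 45 stopped at and 73 crossed the proximal end, while 37 stopped at and 0 crossed the distal end. From the nearest upstream acceptor seen it was 582 bases to the proximal and 673 to the distal end.

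The plus-strand pair on sequence 2 at 7666144 and 7666300, 156 bases apart, had 63 proximal and 36 distal reads. Its proximal share was 63.6% (interval 53.4 to 73.1), with 20 stops and 25 crossings there and 7 stops and 0 crossings at the distal end. On sequence 8 a minus-strand pair at 2108630 and 2108571 was 59 bases apart, with 50 and 26 reads, and all 26 distal reads crossed the proximal end. Its proximal member was the widest of all, with 39 bases. Of its reads, 17 lay at the commonest position, 7 at 1 base and 5 at 11 bases downstream, and single positions up to 38 bases downstream took 1 to 3 reads each beyond that. Its downstream flank therefore reached close to the distal end, and this pair was not found when read starts were joined at 5 or at 24 bases in place of 10.

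The plus-strand pair on sequence 2 at 358401 and 358682 was the widest apart, with 281 bases. It had 20 proximal and 17 distal end reads, with a proximal share of 54.1% (interval 36.9 to 70.5). No distal read crossed the proximal end, but 10 reads along the transcript crossed the proximal end and 11 stopped there, and 15 stopped at the distal end. From the nearest upstream acceptor seen it was 151 bases to the first end and 432 to the other. The remaining 3 pairs had fewer reads. On sequence 14 (plus strand) 7 reads ended at 1450817 and 25 at 1450892, and 22 of the 25 crossed the proximal end. On sequence 16 (minus strand) 12 ended at 4447153 and 6 at 4447058, and on sequence 11 (minus strand) 6 ended at 292598 and 5 at 292475. With such counts the interval of the proximal share was wide, from 23.4 to 83.3% in the last pair.

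**Figure D4:**
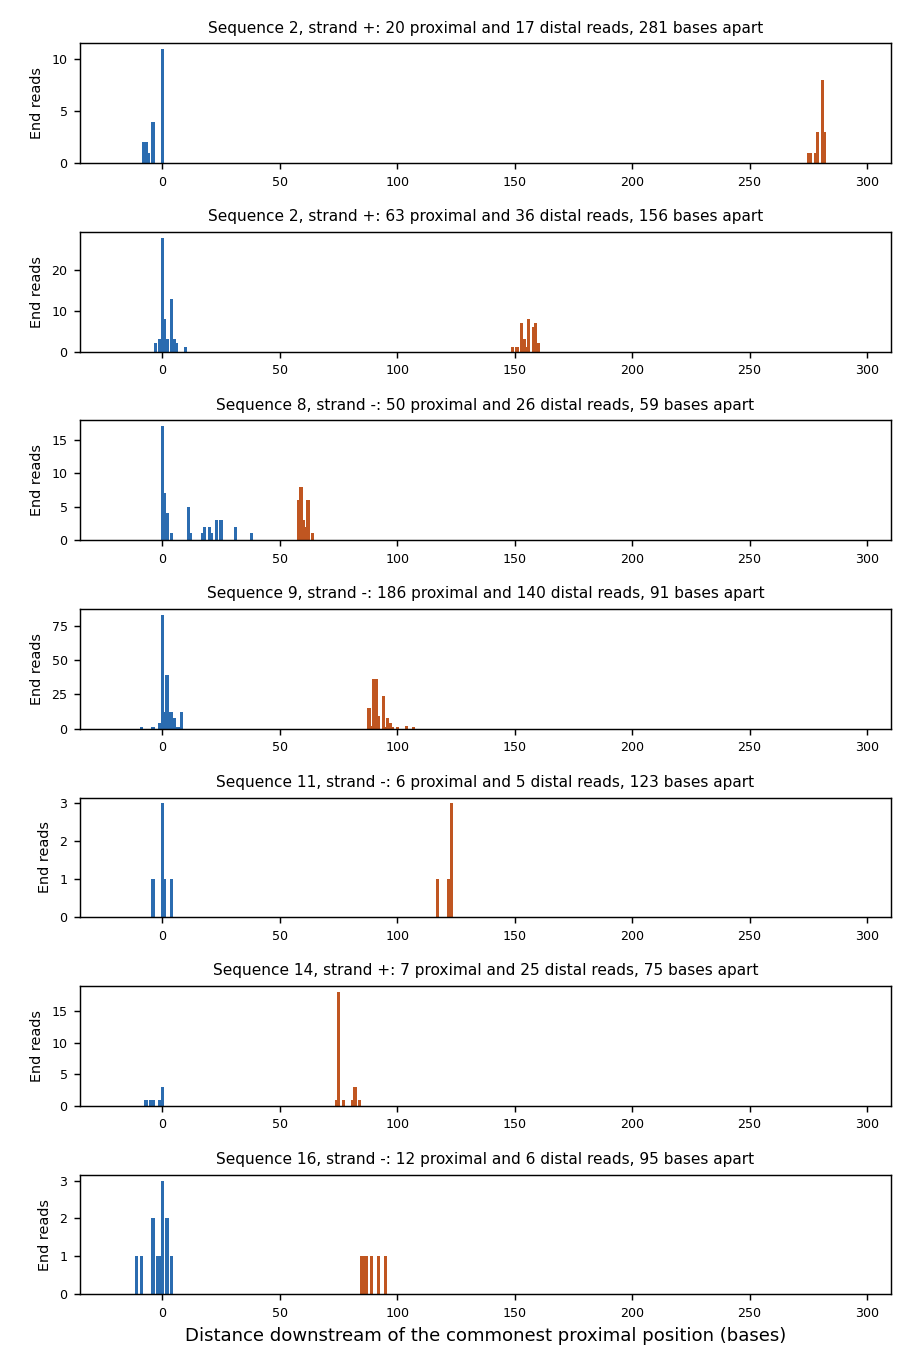
Each panel is 1 of the 7 pairs, with the number of end reads (vertical axis) at each distance in bases downstream of the commonest proximal position (horizontal axis); blue bars are the proximal and orange bars the distal end. The distal groups stand 59 to 281 bases away from the proximal ones, and on sequence 8 the proximal reads spread over 39 bases.

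The other 5 pairs were uneven. On sequence 17 (plus strand), 9 reads ended at 937315 and 99 at 937353, 38 bases further, and 95 of the 99 crossed the proximal end. On sequence 12 (minus strand), 79 ended at 381151 and 12 at 380991. On sequence 10 (minus strand), 10 ended at 38848 and 53 at 38779. On sequence 6 (minus strand), 6 ended at 1514871 and 29 at 1514698, and on sequence 8 (plus strand) 5 ended at 3354984 and 32 at 3355023. The distal end was thus the major one in 4 of these 5.

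The nearest upstream intron seen usually lay farther from the end than a read aligned. Only 39 of the 454 members had end reads that were themselves spliced in the direction of the member. These had a median last exon of 112 bases (interval 92 to 134). Among the 24 with at least 10 spliced end reads, the last exon ran from 27 bases to 170 bases. The shortest was on sequence 4, where the transcript ended at 34999, and 98.04% (interval 95.1 to 99.5) of its 204 end reads were spliced. The longest was on sequence 17 at 5671085 (minus strand), with 17 spliced reads among 62. End reads had a median of 182 aligned bases per member, and a last exon had to lie within an alignment to be measured in this way. The highest value among the 39, at 713 bases, was on sequence 10 at 1163203 and rested on 3 spliced reads of 135; it is named here after its value was seen. Taking the nearest upstream acceptor from any reads of the locus instead, 335 of the 432 members had one. The median distance from it to the end was 589 bases (interval 556 to 634, quartiles 413 and 808.5), and it exceeded 200 bases at 300 of the 335 (89.6%, interval 85.8 to 92.6). It exceeded 1000 bases at 40 of them. There were 13 distances of up to 100 bases, 22 from 101 to 200, 10 from 201 to 300, 33 from 301 to 400 and 50 from 501 to 600, the fullest bin. Members with 20 or more end reads had a median of 515.5 bases (interval 434 to 587), against 636.5 (interval 584 to 699) for those with 5 to 9. Only introns seen in at least 2 reads were used for these distances. Where a later intron was missed, the last exon is shorter than the distance.

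**Figure D5:**
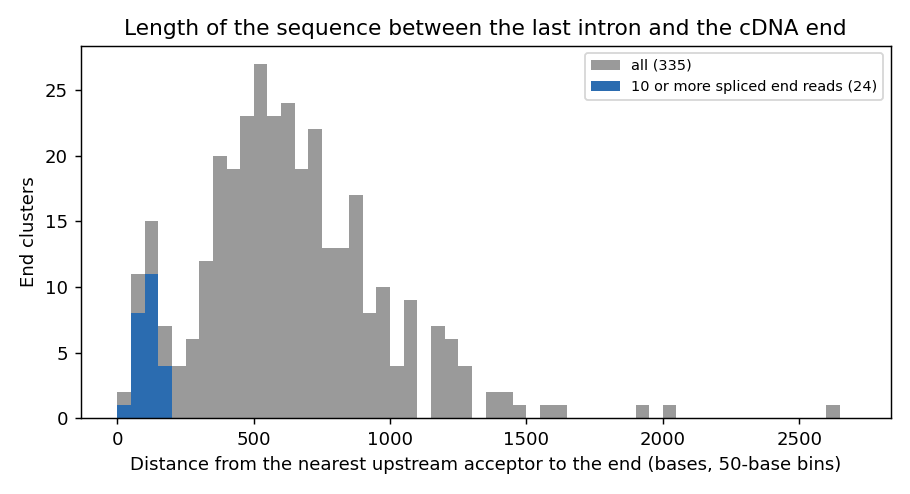
The grey bars count the 335 clusters by the distance in bases from the nearest upstream acceptor to the end, in 50-base bins, and the blue bars the 24 clusters with at least 10 spliced end reads. Most distances lie between 300 and 900 bases, while the blue bars all lie below 200.

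Ends of transcripts that face each other were close together at few places. Within 1000 bases, 10 pairs of members on opposite strands were found, 7 of them with overlapping transcripts. However, 6 of the 7 overlaps involved 1 of the 22 members, among them the 5 with the most reads. These lay on sequence 8 (at 1117958 and 1117581, and at 222572 and 222043), sequence 16 (4755934 and 4755201), sequence 14 (1983436 and 1983044) and sequence 3 (6530260 and 6529640), each inside a single locus. Without the 22 members 4 pairs were left. In 3 of them a gap remained between the ends, of 327 bases on sequence 6, 600 on sequence 2 and 714 on sequence 3. The overlap left was on sequence 12, with 7 reads at 7403066 (plus) and 5 at 7402266 (minus), a shared stretch of 801 bases, in a locus where splicing ran on the minus strand only.

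Alignment quality was high at most members, with a median identity of 98.9% (interval 98.8 to 99) over members. It was under 96% at 9 members and under 90% at 4. Of these 4, 3 had long alignments and lay on sequence 7 at 2504940 (20 end reads, identity 85.9%, 213 aligned bases), sequence 15 at 1329408 (16 reads, 89.5%, 204.5 bases) and sequence 15 at 816598 (6 reads, 84.9%, 194.5 bases), all at loci spliced in the direction of the member. At the fourth, on sequence 7 at 2390956, the median aligned length was 33 bases. Most end reads had another place on the genome at 9 members, and none had one at 365. Identical alignments can be copies from the PCR. The number of distinct alignments had a median of 92.3% of the end reads over members and was as low as 8.33%, and it was 317 for the 957 reads of the largest member and 126 for the 304 reads on sequence 8 at 222572. At least 5 distinct alignments were present at 429 members, and 2 had a single one. Of these 2, the larger was on sequence 17 at 4579242, where all 12 reads shared 1 alignment of 15 bases.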

How the data were processed

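For the N-replete library the deposited file holds raw alignment records, with no expression values. Alignment by the authors used GMAP, version 2007-09-28, with limits of 1000 on intron length and total intron length, per the file headers; GSNAP is named in the submitters' processing notes. At most 5 places per read are listed. The N-deprived library is not analysed here.

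For each read the place with the highest identity times aligned share was kept, and 16189 of 239585 aligned reads with a non-overlapping place within 0.1 points were dropped. Where positions had equally many reads, the one farthest downstream was taken as commonest. Gaps of at least 20 bases were introns, and a locus had a splice direction when at least 10 directed reads had at least 95% in 1 direction. The members and lists were chosen with earlier results of these data known. Regions named are the 10 members with the most reads, the pairs with at least 20% at the minor end, the 5 overlapping facing pairs with the most reads, and the shortest and longest last exon among members with at least 10 spliced end reads; others were chosen after their values were seen. The code was tested on simulated records. Precision is set by the reads per member, which can be PCR copies. Computations ran in Python (3.11.15) with scipy (1.17.1) and numpy (2.4.6), and plots were drawn with matplotlib (3.10.9).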

Additional observations from a re-analysis of the deposited data

Results flagged for a closer look

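Reads of the poly(A) side also lay outside the members. On NA, a sequence name that the sources used here do not explain, there were 31 clusters of 5 or more reads with 6546 end reads, of which the largest had 5191. A further 2097 reads with 45 to 57 leading bases had another place within 0.1 points of the best score and were left out. Both were singled out because no member uses them, and their counts are above the 3 reads that a count of 0 allows.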

How the results depend on the processing

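No paired analysis was possible because there is 1 library. Of 145 values recomputed under alternatives, 114 stayed within their interval or, for counts, within 1.5 times, and 31 moved. A minimum of 3 reads gave 769 members, 35 loci with alternative ends (33 without a 5' cluster between), 23 facing pairs with 18 overlaps, 59.5% of distal reads crossing (55.4% over all 14 pairs), 61.6% of members with a stop and 88% in the splice direction. A minimum of 10 gave 252, 6 (6), 2 with 2 overlaps, 82.7%, 92.9% and 96.7%. It also left the pairs on sequences 11, 14 and 16 unfound, since each has an end under 10 reads. Leads of 40 to 62 bases, which take in reads of 5' ends by construction, gave 745 members, 26 loci (25), 49 facing pairs with 42 overlaps, 34.9%, 73.7% and 57.8%. Leads of 47 to 55 gave 77.8% of reads within 2 bases (71.4% over all members) and 97.2% in the splice direction. Counting identical alignments once left 4 overlaps. It also lowered the share of reads within 2 bases below its interval at 7 of the 10 largest members, to between 65.1% and 83.5%, took the proximal share of the sequence 9 pair from 57.1% to 52.7% (interval 45.6 to 59.6), and left the sequence 11 pair unfound. These 7 were among 8 recomputed values of named members and pairs that moved; the other was the share on sequence 8 at 222572 with leads of 47 to 55 (86.5%). Leaving out the 22 members, an alternative chosen after seeing the data, gave 80.8% crossing, 4 facing pairs with 1 overlap and 98.97% in the splice direction. Joining starts at 5 or 24 bases, unique reads, identity of at least 95% and a wider tie margin moved none of the 145. However, the sequence 8 pair at 2108630 was not found at either joining distance. The number of loci with alternative ends was 20 at 5 bases and 12 at 24. Unique reads left the sequence 6 member at 7310174 unfound, since all its 414 end reads were also listed at another place. Causes were not tested. Depth limits the count of minor ends, since each needs 5 reads.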
